A study of Mus musculus with 2 samples.

Results

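The genes described here encode splicing and RNA-binding proteins that carried a peak of Aiolos, the Ikaros family zinc finger factor encoded by Ikzf3, in mouse natural killer (NK) cells. The members were chosen by gene symbol among the peaks that the authors called, so having a peak is what selected them. The symbols were those beginning with Hnrnp, Srsf and a digit, Sf3a or Sf3b, Snrp, Ddx and a digit, or Prpf and a digit, together with Sfpq and Erh. This gave 21 of the 1404 peaks of the series, naming 17 of its 1276 genes. Aiolos was mapped by CUT&RUN, in which an antibody tethers protein A fused to micrococcal nuclease to its target and the DNA that is cut free is sequenced. The NK cells came from mouse spleen and were grown with interleukin-15 at 50 ng/ml until each sample held 500000 cells or more. Of the 2 libraries, 1 received the antibody against Aiolos and 1 received no primary antibody, and both groups shared tissue, culture and cytokine. The labels used here name no strain, genotype, sex or age of the mice. A peak list cannot check the purity of the NK cells, since it holds no expression values. The fold enrichment, q and gene name of each peak are the authors' own, and since each group is 1 library, no replicate error or test between the libraries could be had. Each interval on a fold is the 95% exact Poisson interval of the tags at the summit, with the background held fixed. A tag is 1 counted read or fragment, and which of these was counted was not established here. Intervals cover counting error only.

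Pre-mRNA splicing is carried out by the spliceosome, which is built from small nuclear RNAs held in Sm protein rings and from several classes of accessory protein. SR proteins mostly promote the use of exons they bind, hnRNP proteins coat nascent RNA and often oppose them, and DEAD-box helicases rearrange RNA and RNA-protein contacts in splicing, ribosome assembly and translation. In lymphocytes this machinery is known for switching the exons of surface receptors, of which the CD45 gene Ptprc, repressed at its variable exons by HNRNPL, is the textbook case.

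The promoter sequences of 5 members are shown, because these are the promoters whose peak was among the 10 strongest of the set and had its summit inside the tabulated window. They are RefSeq sequences of GRCm38.p6, the assembly that mm10 represents, and give the 250 bases just before the RefSeq start, 5′ to 3′ in the direction of the gene. Capitals mark GGGAA, the core of Ikaros family sites, or its reverse complement TTCCC.
Hnrnpk, chr13:58402118-58402367, minus strand: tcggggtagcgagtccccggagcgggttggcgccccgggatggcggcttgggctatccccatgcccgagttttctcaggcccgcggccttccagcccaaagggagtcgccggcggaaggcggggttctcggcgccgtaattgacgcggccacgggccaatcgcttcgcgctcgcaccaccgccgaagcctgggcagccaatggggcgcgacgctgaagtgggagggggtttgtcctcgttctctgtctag
Hnrnpa1, chr15:103240147-103240396, plus strand: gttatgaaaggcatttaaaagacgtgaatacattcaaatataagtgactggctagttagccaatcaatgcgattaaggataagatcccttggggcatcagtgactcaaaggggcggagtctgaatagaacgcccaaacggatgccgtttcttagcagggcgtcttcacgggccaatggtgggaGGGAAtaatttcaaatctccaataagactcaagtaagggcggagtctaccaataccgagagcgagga
Snrpd2, chr7:19149588-19149837, plus strand: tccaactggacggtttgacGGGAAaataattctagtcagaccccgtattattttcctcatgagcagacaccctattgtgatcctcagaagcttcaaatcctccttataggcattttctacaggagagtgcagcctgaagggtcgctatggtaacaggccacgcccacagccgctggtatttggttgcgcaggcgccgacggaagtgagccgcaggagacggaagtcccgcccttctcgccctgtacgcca
Ddx42, chr11:106216676-106216925, plus strand: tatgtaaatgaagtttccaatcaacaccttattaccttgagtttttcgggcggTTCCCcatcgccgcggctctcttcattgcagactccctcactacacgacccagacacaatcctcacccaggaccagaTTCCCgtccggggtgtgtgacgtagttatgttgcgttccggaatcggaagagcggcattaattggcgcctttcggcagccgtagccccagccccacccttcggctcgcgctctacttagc
Snrpa, chr7:27196272-27196521, minus strand: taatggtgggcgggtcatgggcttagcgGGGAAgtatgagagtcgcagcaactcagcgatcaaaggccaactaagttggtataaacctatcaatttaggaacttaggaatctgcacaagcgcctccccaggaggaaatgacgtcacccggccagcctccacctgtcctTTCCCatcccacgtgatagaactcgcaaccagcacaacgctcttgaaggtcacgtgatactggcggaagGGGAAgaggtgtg
The summit lay 192 bp before the RefSeq start in Hnrnpk, 245 bp in Hnrnpa1, 195 bp in Snrpd2, 203 bp in Ddx42 and 126 bp in Snrpa. Snrpa held 3 matches within the part covered by its peak, with the centre of the nearest 46 bp from the summit. In Ddx42 1 of 2 matches lay in the peak, 8 bp from the summit, and in Snrpd2 the single match lay in the peak, 34 bp from the summit. The match of Hnrnpa1 lay outside the peak, 180 bp from the summit, and the Hnrnpk stretch held 0 matches although the peak covered all 250 bases. The summit of the strongest member peak, at Hnrnpl, lies 409 bp before the start and so outside the window.

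Genes of every family except Sf3a and Sf3b carried a peak. Of the 105 protein-coding genes whose symbols fit the rule, 17 were named by a peak, which is 16.2% (Clopper-Pearson interval at 95%, 9.72 to 24.7). Over all 21896 protein-coding genes the share was 5.38%. The members were selected on that same property, so the 2 shares are set side by side as a description. The hnRNP genes had 6 of 21 with a peak, the genes with Ddx symbols 5 of 37 and the Snrp genes for Sm and snRNP proteins 2 of 12. The Srsf genes for SR proteins had 1 of 11, Srsf1, and the Prpf genes for pre-mRNA processing factors 1 of 13, Prpf4b. None of the 9 Sf3a and Sf3b genes, whose products bind the branch point with the U2 particle, was named by a peak, which leaves an upper 95% exact bound of 33.6%. Sfpq and Erh, which the rule takes by name, each had 1. Counting promoter peaks alone, meaning a peak centre within 1000 bp of the annotated start, left 16 members, 15.2% of the families against 3.79% of all protein-coding genes.

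The relatives named here were picked after the peaks were known and are given as examples, with 88 of the 105 family genes having no peak. Hnrnpl had peaks while Hnrnpll, its lymphocyte-enriched relative, had none. Hnrnpul1 was named and Hnrnpul2 was not, and Hnrnph3 was named while Hnrnph1, Hnrnph2 and Hnrnpf were not. Among the A and B group, Hnrnpa1 was named and Hnrnpa0, Hnrnpa2b1, Hnrnpa3 and Hnrnpab were not. The same held for Ddx5 against Ddx17. Ddx3x was named and its Y-linked copy Ddx3y was not, but the labels give no sex, so the cells may have lacked a Y chromosome. A gene that no peak names may still have signal below the authors' threshold, which was not analysed here.

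Hnrnpl, which encodes the splicing repressor of CD45 exons, carried 3 promoter peaks within 2224 bp on chromosome 7, the most of any member. The middle peak, at 28810306 to 28810661, had a fold enrichment of 21.7 (14.5 to 31.5) from 26 tags, which placed it at rank 3 of the 1404 peaks. It lay 409 bp upstream of its start, farther than any other member summit at a promoter. The peak before it, at 28809324 to 28809697, reached 4.65-fold (2.03 to 9.81), and the peak after it, at 28810980 to 28811547, reached 4.83-fold (2.11 to 10.2), each from 5 tags. The counting intervals of the flanking peaks overlapped each other and neither overlapped that of the middle peak. Gaps of 608 and 318 bp without a called peak separated them. The 3 peaks were assigned to 3 transcripts of the gene with different starts. The summit of the peak at 28809324 lay 1478 bp from the nearest RefSeq start of Hnrnpl, so it counts as a promoter peak only by its assigned transcript.

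Hnrnpa1 and Hnrnpul1 each had a second peak. HNRNPA1 represses exons and binds many RNAs. Its stronger peak, on chromosome 15 at 103240045 to 103240269, reached 9.96-fold (5.85 to 16.0, 15 tags), and the weaker, 238 bp farther on at 103240508 to 103240868, reached 4.61-fold (2.36 to 8.33, 9 tags). The intervals overlapped, and the order of the peaks was not tested. The Hnrnpul1 promoter peak, on chromosome 7 at 25754997 to 25755204, reached 8.08-fold (4.37 to 13.9). The other, at 25755916 to 25756218, had its summit 1245 bp upstream and 7.24-fold (3.58 to 13.5). These 3 genes were 17.6% of the 17 members, and 8.07% of all genes with a peak had more than 1.

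The remaining hnRNP genes had 1 promoter peak each. Hnrnpk, for a protein that binds C-rich RNA and DNA, had a peak of 11.8-fold (6.68 to 19.6, 13 tags) on chromosome 13 at 58401893 to 58402482. Hnrnpc, for a protein that binds U-rich tracts in nascent RNA, had 5.07-fold (2.67 to 8.93) on chromosome 14 at 52104167 to 52104667. Hnrnph3, of the group that binds G-rich RNA, had 5.06-fold (2.21 to 10.7) on chromosome 10 at 63024083 to 63024297. Hnrnpc rested on 10 tags and Hnrnph3 on 5, yet their folds were alike, because the background recovered at Hnrnpc was 1.17 tags and that at Hnrnph3 0.186 tags, the floor of the list. The 10 hnRNP peaks ran from 4.61-fold to 21.7-fold with a median of 6.15, close to the median of all peaks at 6.44, and the family held both the strongest member peak and the 5 weakest after that of Ddx41.

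Core particle, SR protein and kinase genes had peaks of middle strength within the set, near or above the upper quartile of all peaks, 8.05-fold. Snrpd2, for a protein of the Sm ring, had 9.67-fold (6.09 to 14.7) from 20 tags on chromosome 7 at 19149516 to 19149764, with the summit 79 bp upstream of the start. Snrpa, for the U1 particle protein that binds a stem loop of its RNA, had 8.13-fold (4.16 to 14.7) from 9 tags on chromosome 7 at 27195910 to 27196603, in the widest member peak, of 694 bp. Srsf1, the founding SR protein, had 8.05-fold (4.12 to 14.6) on chromosome 11 at 88047361 to 88047583. Prpf4b, for a kinase that phosphorylates spliceosome proteins, had 7.89-fold (4.04 to 14.3) on chromosome 13 at 34875257 to 34875467. The summits of Srsf1 and Prpf4b lay at the same place, 99 bp downstream of the start, and each rested on 9 tags. The intervals of these 4 genes overlapped throughout.

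The 5 DEAD-box peaks, all at promoters, spanned most of the range of the set. Ddx5, for the helicase p68 that acts in splicing and as a transcriptional cofactor, had 12.9-fold (7.56 to 20.7, 15 tags) on chromosome 11 at 106788608 to 106789128. Ddx42, for a helicase that binds the SF3b complex, had 8.83-fold (4.996 to 14.6, 13 tags) on the same chromosome at 106216567 to 106216803. Ddx21, for a nucleolar helicase of ribosomal RNA processing, had 6.44-fold (3.07 to 12.4) on chromosome 10 at 62602036 to 62602262, the median fold of all peaks. Ddx3x, for an X-linked helicase of translation initiation, had 5.13-fold (2.35 to 10.3, 6 tags) on chromosome X at 13280607 to 13280916. Ddx41, for a helicase of the spliceosome that also senses DNA, had the weakest member peak, 4.22-fold (1.76 to 9.48) from 4 tags on chromosome 13 at 55536328 to 55536724. Its -log10 q was 2.03, against 1.31 for the last peak of the list, and regions below that limit were not analysed here. The counting intervals of Ddx5 and Ddx41, the ends of this family's order, overlapped, and their difference was not tested.

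Erh and Sfpq were the other strong members. Erh, for a small conserved protein tied to splicing and mitosis, had 15.8-fold (10.3 to 23.2) from 24 tags on chromosome 12 at 80643911 to 80644159, rank 11 of the list. Sfpq, for a paraspeckle protein that binds polypyrimidine tracts, had 11.8-fold (6.68 to 19.6, 13 tags) on chromosome 4 at 127015513 to 127015730. This was the single member peak in intergenic sequence, with its summit 5778 bp upstream of the start. Its fold equalled that of Hnrnpk because both rested on 13 tags over the background floor.

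**Figure D1:**
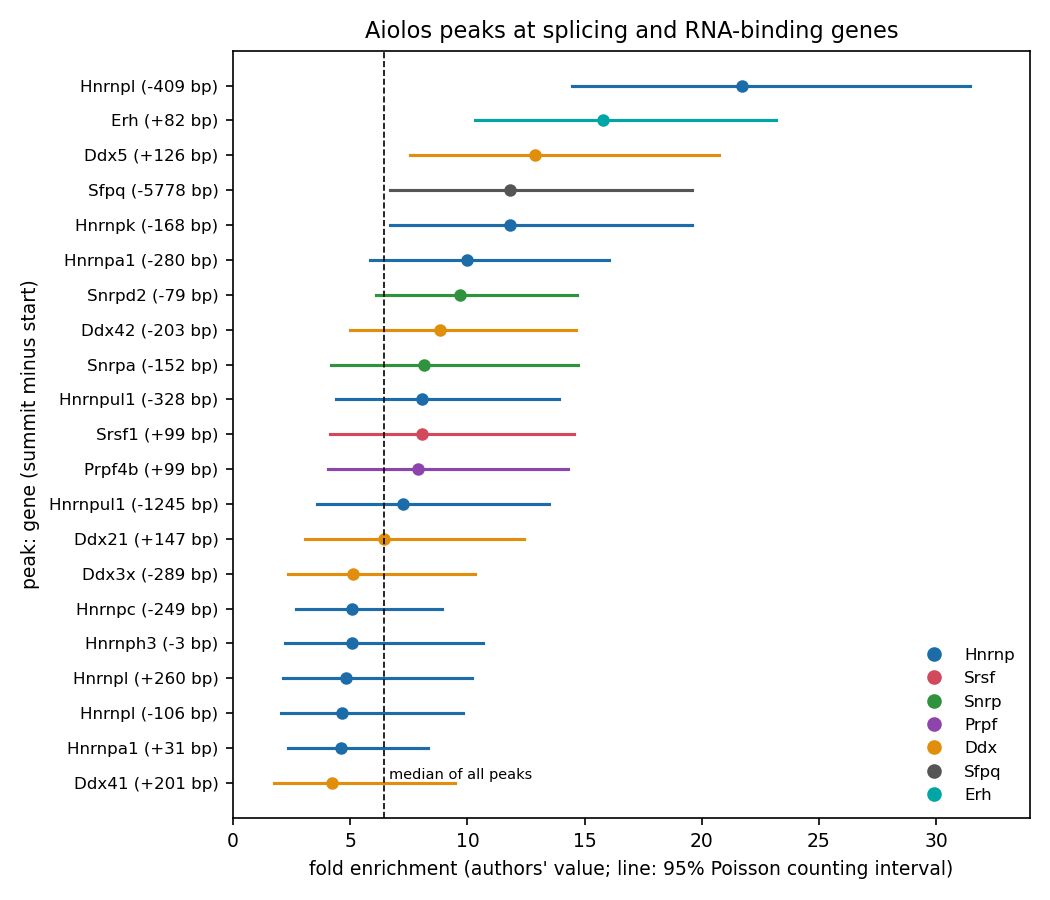
Fold enrichment of the 21 member peaks on a linear axis, with points for the authors' value, horizontal lines for the 95% Poisson counting interval, colours for the family, and the distance of the summit from the annotated start beside each gene. Hnrnpl at 21.7 and Erh at 15.8 stand at the top, and the dashed line marks the median of all peaks at 6.44.

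The member peaks had a higher median than the list. Their median fold was 8.05 (quartiles 5.07 and 9.96) against 6.44 over all peaks, and 14 of 21, or 66.7% (exact interval 43.0 to 85.4), were at or above that median, where 51.0% of all peaks were. Among promoter peaks alone the medians were 8.05 for members and 6.60 for all. Of the member promoter peaks 11 of 19, 57.9%, reached the median of all promoter peaks, which by definition parts that list about evenly. Among the 50 strongest peaks 3 were members, beside 21 of all 1404 peaks: Hnrnpl, Erh and Ddx5 at ranks 3, 11 and 33. Depth was low throughout: a member summit held 4 to 26 tags with a median of 9, and 57.1% of member peaks rested on 10 tags or fewer against 71.2% of all peaks. The recovered background was at its floor in 4 of 21 member peaks, 19.0%, and in 26.0% of all peaks, with medians of 0.242 and 0.267 tags. No test was made of these differences, since the members were chosen with the list known and peaks are not replicates.

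Nearly all member peaks lay at gene starts. Of the 21 peaks, 19 had their centre within 1000 bp of the start, 90.5% (exact interval 69.6 to 98.8) beside 64.8% of all peaks. The exceptions were Sfpq and the outer peak of Hnrnpul1. The 19 promoter summits lay between 409 bp upstream and 260 bp downstream of the start, with 11 upstream, 57.9% (exact interval 33.5 to 79.7), beside 55.9% of all promoter peaks. Windows known from the whole list held 5 summits at 101 to 250 bp upstream (Hnrnpk, Ddx42, Snrpa, Hnrnpc and a Hnrnpl peak) and 5 at 50 to 149 bp downstream (Erh, Ddx5, Srsf1, Prpf4b and Ddx21). Snrpd2 and Hnrnph3 had summits less than 100 bp upstream. These were 26.3%, 26.3% and 10.5% of the members, beside 25.7%, 22.9% and 7.58% of all promoter peaks, so the members lay on both sides of the start in much the proportions of the list. Of the hnRNP promoter summits 7 of 9 were upstream, as were both Snrp summits, and the single summits of Srsf1, Prpf4b and Erh were downstream. In the DEAD-box family Ddx5, Ddx21 and Ddx41 were downstream and Ddx42 and Ddx3x upstream.

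**Figure D2:**
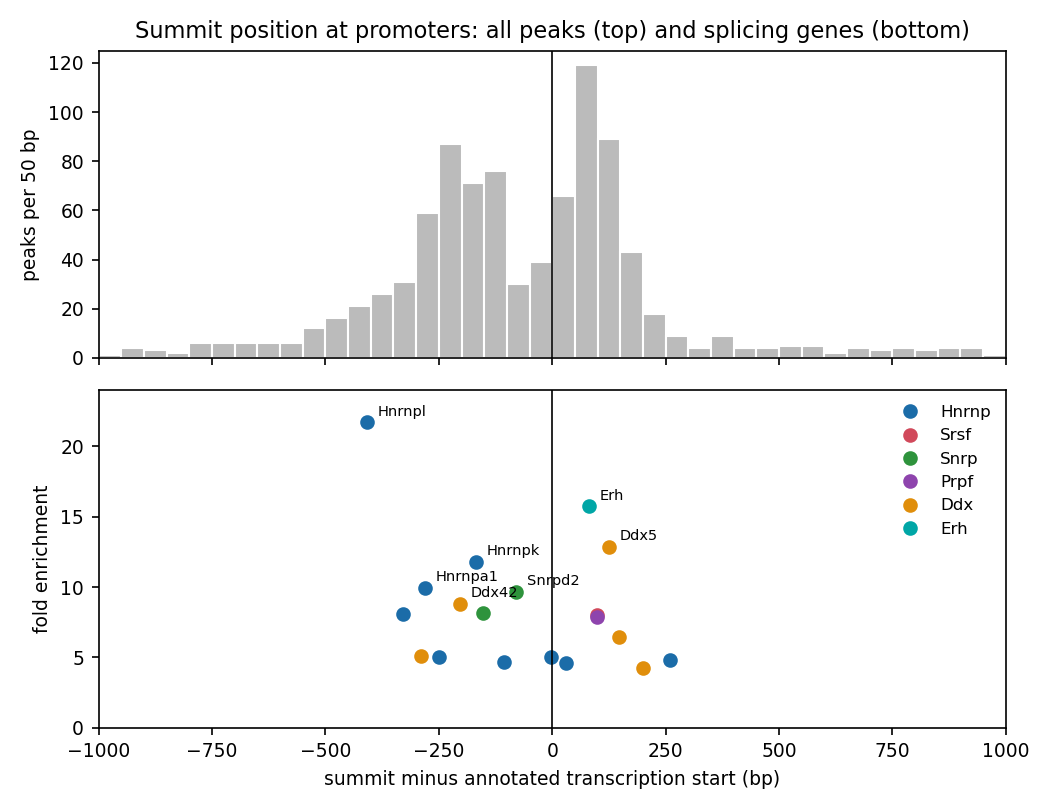
Summit position relative to the annotated start in bp, as peaks per 50 bp for the 910 promoter peaks of the list (top, with 2 beyond the axis) and as fold enrichment for the 19 member promoter peaks, coloured by family (bottom). Member summits lie between 409 bp upstream and 260 bp downstream, with Hnrnpl the farthest and the highest.

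Several member peaks lay near both the start of the member and that of a gene transcribed the other way. Among the 19 member promoter peaks, 8 had the RefSeq start of another protein-coding gene within 1000 bp of the summit, 42.1% (exact interval 20.3 to 66.5), and in 8 of 8 that gene lay on the opposite strand, as in 129 of 137 (94.2%) over all promoter peaks with such a neighbour. Of the 729 promoter peaks of the list with a RefSeq start of their own gene, 18.8% had such a neighbour. The partners were Rmi1 for Hnrnpk, Pbld2 for Hnrnph3, Slc39a9 for Erh, Cep95 for Ddx5, Ccdc47 for Ddx42, BC024978 for Snrpa, and Cbx5, the gene of the heterochromatin protein HP1 alpha, for both Hnrnpa1 peaks. The Hnrnpk summit lay 61 bp from the start of Rmi1, a gene of the complex that dissolves recombination intermediates, and 192 bp from the RefSeq start of Hnrnpk. The Erh summit lay 82 bp from Erh and 186 bp from Slc39a9, a zinc transporter gene. For Hnrnph3 the RefSeq starts put the summit 292 bp from Pbld2 and 371 bp from Hnrnph3, although it lay 3 bp from the start of the transcript that the authors assigned. In the other cases the member's own start was the nearer. Not all of these summits lay between the starts, and a peak close to both cannot be given to either gene from its position.

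A further peak near the start of Hnrnpa1 was named by the authors for Cbx5. It lay on chromosome 15 at 103239350 to 103239819 with 7.57-fold (4.09 to 13.0, 11 tags), 727 bp from the start of Hnrnpa1 and 146 bp inside Cbx5. With either end of any protein-coding gene in the gene table, which gives no strand, 10 of 19 member promoter peaks had another gene within 1000 bp, 52.6% beside 26.9% of all promoter peaks. This count added Rpgrip1, an end of which lay 36 bp from the Hnrnpc summit, and Qpctl, 447 bp from that of Snrpd2.

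**Figure D3:**
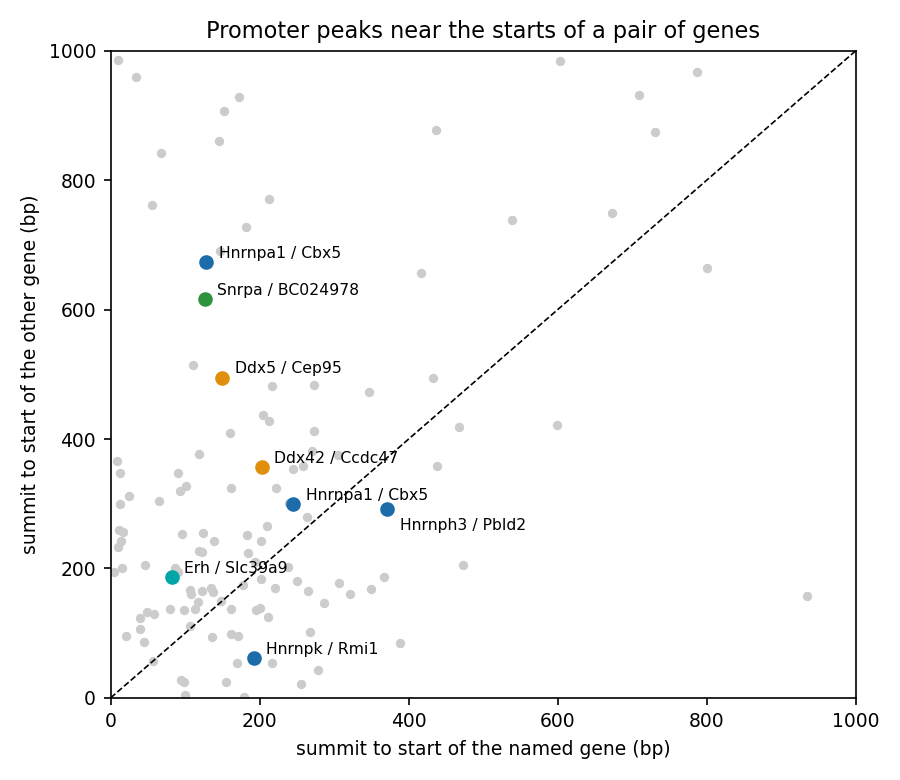
Distance in bp from the summit to the nearest RefSeq start of the named gene (horizontal) and of another protein-coding gene (vertical) for promoter peaks that have both, with members coloured by family and labelled, other peaks in grey, and 13 grey peaks beyond the axis. Hnrnpk and Hnrnph3 lie below the dashed line of equal distance, nearer to the other gene.

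Some family genes had a start close to a peak that carries the name of a neighbour. Of 76 family genes that no peak named and whose promoter is tabulated, 6 had a start within 1000 bp of the centre of a peak named for a neighbour, 7.89%. Over all such protein-coding genes the share was 1.06%. In 6 of 6 cases the named gene ran in the opposite direction, as for 156 of the 175 such protein-coding genes (89.1%). The strongest was at Ddx54, a nucleolar helicase gene, where a peak named for Rita1 on chromosome 5 at 120612422 to 120613370 had 12.4-fold (8.28 to 18.0, 26 tags), with its summit 301 bp from Ddx54 and 240 bp from Rita1. At Srsf5, an SR protein gene, a peak named for Gm20337 reached 8.05-fold (4.12 to 14.6) with its summit 177 bp from Srsf5. The Sf3a1 and Sf3a2 genes, for subunits of the U2 particle, each had such a peak: one named for Plekhj1 with 7.60-fold (3.89 to 13.8), 354 bp from Sf3a2, and one named for Ccdc157 with 5.90-fold (2.70 to 11.9), 139 bp from Sf3a1. Prpf31, for a protein of the tri-snRNP, had one named for Tfpt with 5.53-fold (2.99 to 9.52), and Ddx59 one named for 9230116N13Rik with 5.06-fold (2.21 to 10.7). The Sf3a1 and Ddx59 summits lay nearer to the family gene than to the start of the transcript the authors assigned. Adding these genes to those named by a peak, 23 of the 105 family genes had a peak by name or at their start, and the Sf3a and Sf3b genes went from 0 to 2 of 9. The wider rule also adds genes over the whole list. There, 1178 of 21896 protein-coding genes were named by a peak. Of the 16523 unnamed ones with a tabulated promoter, 175 had a start near one.

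**Figure D4:**
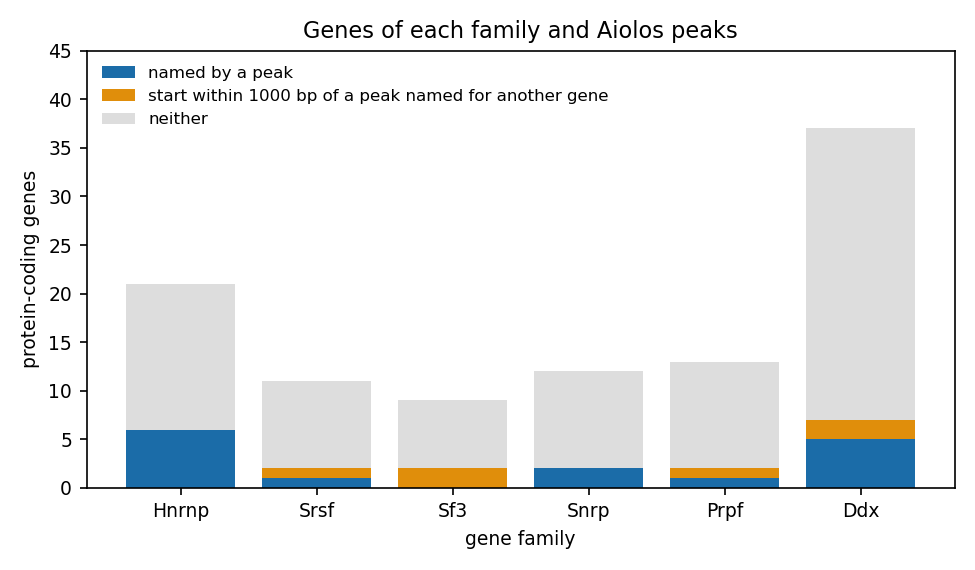
Number of protein-coding genes per family named by a peak (blue), not named but with a RefSeq start within 1000 bp of a peak named for another gene (orange), or neither (grey), stacked from 0. The Sf3 bar has 0 blue and 2 orange genes, and the Hnrnp bar 6 blue and 0 orange.

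Other splicing and RNA-binding genes, in 9 lists that lie outside the rule, had peaks at 15 of 134 genes, 11.2% (exact interval 6.40 to 17.8), where the share of all protein-coding genes was 5.38%. In the list for recognition of the branch point and 3′ splice site, 3 of 13 genes had a peak: Sugp1 with 11.3-fold, U2af2, the large subunit of U2AF, with promoter peaks of 8.05-fold and 7.89-fold, and Sf1, which binds the branch point, with 6.37-fold. SR-related proteins and SR kinases had 3 of 17, led by Srrm1, a coactivator of exonic enhancers, with 14.3-fold (8.56 to 22.8) at its promoter, then Luc7l2 with 10.1-fold and Srrm2 with 6.44-fold. The tri-snRNP and catalytic step list had 2 of 23, Aqr with 11.0-fold in an intron and Sart1 with 6.63-fold. The splicing regulators had 2 of 18, Mbnl1 with a distal peak of 5.58-fold and Celf2 with 4.71-fold, neither at a promoter. Pspc1, a paraspeckle partner of SFPQ, was 1 of 6 in its list with 10.1-fold, and Lsm6 was 1 of 8 LSm genes with 5.90-fold. Numbered Rbm genes had 3 of 38, Rbm15 with 9.84-fold, Rbm47 with 5.90-fold and Rbm42 with 4.83-fold. The 16 DEAH-box genes, relatives of the DEAD-box family, had 0 with a peak, with an upper 95% exact bound of 20.6%, and so did the 5 exon junction complex genes, with a bound of 52.2%.

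Short motifs were counted on both strands of the 300 bp RefSeq windows, which run from 250 bp before the start to 50 bp after it. Many member summits lay outside these windows. The strongest Hnrnpl summit and those of Hnrnph3, Ddx3x, Hnrnpul1 and Hnrnpc lay 409, 371, 341, 326 and 256 bp from the RefSeq start. Those of Erh, Srsf1 and Ddx41 lay 82, 99 and 201 bp downstream. The counts thus describe promoter windows and not the sequence under the peaks. GGGAA was present in 11 of 16 member promoters, 68.8%, beside 64.3% of 704 promoters of genes with a promoter peak, 61.6% of 99 windows of family genes that no peak named and 63.0% of 21262 windows of all protein-coding genes, so it was about as common as in promoters at large. TGGGAA, which contains it, was present in 3 of 16, 18.8%, beside 22.2% of promoters with a peak, 20.2% of the unnamed family windows and 24.5% of all windows. CCGGAA, the ETS core, which can overlap GGGAA by shared bases, was present in 5 of 16, 31.3%, beside 27.3% of promoters with a peak, 48.5% of the unnamed family windows and 18.7% of all windows. CCAAT was in 9 of 16, 56.3%, beside 50.6% of promoters with a peak, 47.5% of the unnamed family windows and 38.2% of all windows, and 4 copies each stood in the windows of Hnrnpa1, Hnrnpc, Hnrnpl and Hnrnpul1. TGACG, the cyclic AMP element core, was also in 9 of 16, 56.3%, beside 38.1% of promoters with a peak, 47.5% of the unnamed family windows and 23.6% of all windows. TGANTCA, a looser string that includes the AP-1 site and allows any base at its centre, was in 2 of 16, Hnrnpa1 and Prpf4b, 12.5%. The shares beside it were 4.69% of promoters with a peak, 1.01% of the unnamed family windows and 6.99% of all windows. A match is a description of letters and not a bound site.

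The median GC share of the member promoters was 58.3%, with Hnrnpa1 lowest at 48.3% and Hnrnph3 highest at 73.0%, beside 60.7% for promoters of genes with a promoter peak, 60.0% for family genes that no peak named and 56.3% for all windows. They held a median of 23 CpG dinucleotides, beside 24 in the unnamed family windows, 22 in promoters with a peak and 13 in all windows. Hnrnpk had the most, 40, and Erh and Snrpa the fewest, 13 each.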

How the data were processed

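CUT&RUN was done on cultured mouse splenic NK cells, 1 library with an Aiolos antibody and 1 without a primary antibody. The build mm10 and the tools Bowtie2, SAMtools, Picard and MACS2 are named, without roles, per the submitters' processing notes. The title of the library without primary antibody marks it as input. Whether it served as control in peak calling, and the peak cutoff, is not given in the sources used here. Per the file headers, the authors deposited for each peak a signal value, taken as the MACS2 fold enrichment (a ratio), the -log10 of its p-value and q-value, a score equal to 10 times the -log10 q without decimals, the summit, the transcript and the gene. Starts are taken as 1-based.

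Tags and background at each summit were recovered from fold and p, taking fold as tags plus 1 over background plus 1 and p as the Poisson probability of more tags. This solved 1404 of 1404 peaks and missed the deposited -log10 p by 1.75e-05 at most. On 1404 simulated peaks it recovered 100% of the tag counts. Those peaks were built with the same form of fold and p, so this checks the solving and not the form. The depth of the libraries themselves was not analysed. All 17 member gene identifiers matched the RefSeq gene table and the promoter table (GRCm38.p6). Neighbouring starts come from the promoter table, either end of a gene from the gene table. Shares have exact Clopper-Pearson intervals at 95%. No test was made, as planned for 1 library per group.

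Every member is named. Full values are given for the 10 strongest peaks, genes with more than 1 peak and the weakest peak, and for each further list at most 4 genes with the highest fold. The remaining members' values, the shared starts and the family relatives were chosen after their values were seen. The members, lists and motifs were chosen with earlier results of these data known. Alternatives were stricter peak sets, other windows and distances, the strongest peak per gene, tags or q in place of fold, and leaving out the Ddx family. Leaving out Hnrnpl, RefSeq starts, gene ends, a 500 bp limit, counting starts near a peak of another gene, and the strongest promoter peak for the neighbour count were added after seeing the data. Python 3.11.15, SciPy 1.17.1 and pandas 2.3.3 were used.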

Additional observations from a re-analysis of the deposited data

How the results depend on the processing

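The alternatives left each of the 5 shares within the exact 95% interval of its main value, in 30 of 30 cases. These intervals are wide with 21 peaks, so this says little about small shifts. The share of family genes with a peak ran from 11.4% above the median fold to 21.9% when starts near a peak of another gene counted, around 16.2%. Over all protein-coding genes the main share was 5.38%, and the shares at those other settings are not given here. The share of member peaks at promoters ran from 84.6% above the median fold to 95.2% with a window of 3000 bp, around 90.5%. Over all peaks it was 64.8% in the main setting and 71.6% with a window of 3000 bp. The share at or above the median fold ran from 57.9% among promoter peaks to 72.2% without Hnrnpl, around 66.7%. The 57.9% was measured against the higher median of all promoter peaks, 6.60, and the main share against that of all peaks, 6.44. Upstream summits ran from 52.6% with the peak centre to 63.2% with RefSeq starts, around 57.9%. The share with the start of another gene near the summit ran from 31.6% with a limit of 500 bp to 52.6% with gene ends, around 42.1%. With a median of 9 tags, the counting intervals of single members were wide, and the order between members was not tested. No paired analysis was possible because each group holds a single library.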
